A study of Rattus norvegicus with 32 samples.

Results

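The 10 genes described here encode apolipoproteins and the protein that loads lipid onto them: Apob, Mttp, Apoa1, Apoa2, Apoa4, Apoa5, Apoc1, Apoc2, Apoc3 and Apoe. They were taken by symbol from the 32883 Ensembl genes of a table of rat liver expression, and where a symbol stood on several rows the row with the highest mean was used. All 10 were among the 11924 genes tested, which reached at least 1 FPKM (fragments scaled to gene length in kilobases and to the library's reads) in at least 8 libraries. The study sequenced polyadenylated RNA of livers from male rats of the inbred Lewis strain and concerned liver grafts with macrosteatosis, in which hepatocytes hold large fat droplets. The labels name 8 long-term survivor livers, 12 post-transplant livers and 12 pre-transplant livers, and 8, 11 and 11 libraries of these were used here. The labels give no age, fat content, treatment, sampling time or batch for any of these groups nor do they state that libraries stand for different animals. The p-values therefore measure only how these samples spread, which may be technical.

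Very-low-density lipoprotein (VLDL) is the particle in which hepatocytes export triglyceride. Each particle is built in the endoplasmic reticulum around a single molecule of apolipoprotein B, onto which microsomal triglyceride transfer protein, encoded by Mttp, loads lipid while the chain is still being made. The C apolipoproteins and apolipoprotein A-V act later, in plasma, where they set how fast lipoprotein lipase removes triglyceride from the particle, and apolipoprotein E carries the remnant back to liver receptors. Apolipoproteins A-I and A-II are proteins of high-density lipoprotein (HDL), which returns cholesterol to the liver. In rodents, liver as well as intestine makes apolipoprotein A-IV, and liver edits part of its Apob mRNA into the shorter form that intestine makes.

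The genes lie mostly in 2 clusters, given here in the table's own coordinates (build Rnor_6.0, listed in the submitters' processing notes). On chromosome 8 stand Apoa1 (ENSRNOG00000045679, 50525091 to 50526875, plus strand), Apoc3 (ENSRNOG00000047503, 50529318 to 50531498, minus strand), Apoa4 (ENSRNOG00000055909, 50537009 to 50539376, plus strand) and Apoa5 (ENSRNOG00000018436, 50559126 to 50561736, plus strand). On chromosome 1, all on the minus strand, stand Apoc2 (ENSRNOG00000018402, 80589023 to 80594136), Apoc1 (ENSRNOG00000018426, 80606638 to 80609921) and Apoe (ENSRNOG00000018454, 80612895 to 80617057). Apoa2 (ENSRNOG00000003500) is on chromosome 13, 89597138 to 89598802, plus strand. Apob (ENSRNOG00000005542) is on chromosome 6, 33176778 to 33224997, plus strand, and Mttp (ENSRNOG00000010655) is on chromosome 2, 243366181 to 243407608, minus strand. A second row with the symbol Apoc1 (ENSRNOG00000051784, 207 bases, on an unplaced scaffold) held 2.1 to 51.0 FPKM and was not used. If it is a copy of Apoc1, reads could have been split between both rows.

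The promoters of 3 genes are printed to show the sequence at genes of both clusters with different outcomes, whose difference was not itself tested: Apoa4 and Apoa5 are neighbours on chromosome 8 of which Apoa4 passed the test post-transplant and Apoa5 did not, and Apoc2 passed in both comparisons with pre-transplant livers. The sequences are the 250 bases before the annotated start, from RefSeq on GRCr8, a later build than that of the table, and 5 of the 10 genes had an entry there. They are written 5′ to 3′ on the strand of the gene, and capitals mark motifs that were chosen after the sequences had been seen. The windows are chr8:55435529-55435778 (plus strand) for Apoa4, chr8:55457621-55457870 (plus strand, the first of 2 windows of this gene) for Apoa5 and chr1:88462366-88462615 (minus strand) for Apoc2.
Apoa4: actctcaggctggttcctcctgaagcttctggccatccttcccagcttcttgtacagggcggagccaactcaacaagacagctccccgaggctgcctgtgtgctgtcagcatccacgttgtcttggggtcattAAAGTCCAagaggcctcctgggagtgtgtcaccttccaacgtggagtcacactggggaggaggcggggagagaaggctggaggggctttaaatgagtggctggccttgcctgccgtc
Apoa5: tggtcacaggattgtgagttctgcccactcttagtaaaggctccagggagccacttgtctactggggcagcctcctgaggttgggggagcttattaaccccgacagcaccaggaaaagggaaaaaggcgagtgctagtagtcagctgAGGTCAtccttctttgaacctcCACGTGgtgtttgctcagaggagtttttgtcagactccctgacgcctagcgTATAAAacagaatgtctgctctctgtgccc
Apoc2: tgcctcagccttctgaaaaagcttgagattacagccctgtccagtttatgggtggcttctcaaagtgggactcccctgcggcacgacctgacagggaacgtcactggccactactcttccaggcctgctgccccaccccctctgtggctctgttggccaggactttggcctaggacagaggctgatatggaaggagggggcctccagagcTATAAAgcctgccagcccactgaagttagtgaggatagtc
In the Apoa4 window the capitals mark AAAGTCCA, the core of a site for the hepatocyte factor HNF4, from 117 to 110 bases before the start. Those letters occurred, on either strand, in 1.19% of the 33469 rat windows of the same length. In the Apoa5 window they mark the nuclear receptor core AGGTCA (ending 98 bases before the start, in 14.1% of windows), the E-box CACGTG (81 to 76 bases, 5.59%) and the TATA box TATAAA (30 to 25 bases, 12.9%). The Apoc2 window holds TATAAA from 40 to 35 bases before the start. These matches describe letters and do not show that a factor binds there.

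The libraries held 17401155 to 18482059 reads in long-term survivors, 15802817 to 18464388 post-transplant and 15372950 to 19311664 pre-transplant, recovered from the steps of the FPKM values. The gene with the fewest reads in any library, Apoa4, still had 443, and Apoe had up to 287800. Among long-term survivors, replicate 3 resembled replicate 7, and 4 resembled 8, more than any other 2 libraries of a group did. Their chi-square over its degrees of freedom was 3.035 and 3.332, where the 136 remaining pairs ranged between 22.616 and 328.79. They were kept as separate libraries, and calls of genes named here that change with their mean alone are given with it. Median-of-ratios factors of the deposited FPKM were 0.897 to 0.911 in long-term survivors, 1.04 to 1.05 post-transplant and 1.04 to 1.05 pre-transplant. No label names a run for these columns, and a difference in scaling and one between the groups cannot be told apart. The median change of all genes tested was -0.17 against pre-transplant and -0.16 against post-transplant on the log2 scale, and -0.01 and 0.01 after median-of-ratios scaling. Post- against pre-transplant it was -0.03, and 0.13 when FPKM was recomputed from total reads. Replicate 9 among post-transplant livers and, among pre-transplant livers, u2 (1 of 2 columns with the same header) were picked as near the other group. No distance between groups is given here for that choice. In bulk tissue fewer cells of a type and less RNA per cell cannot be told apart.

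Per kilobase of gene, Apoe was the most abundant of the 10 in all 3 groups. Its mean level was 6624 ± 1558 FPKM in long-term survivor livers (SD, n = 8), 5010.2 ± 2125 in post-transplant livers (n = 11) and 9474 ± 1497 in pre-transplant livers (n = 11). Apoc3 came next in mean level and Mttp last in every group. Apoe exceeded Apoc3 in 8 of 8, 11 of 11 and 11 of 11 libraries of the 3 groups. The middle of the order was less fixed. In post-transplant livers Apoc3 (2594 ± 1540 FPKM) was above Apoa1 (1758 ± 614 FPKM) in 6 of 11 libraries, and Apoa1 above Apoc1 (1567 ± 978 FPKM) in 6 of 11, so these neighbours did not differ beyond their spread. Below them, Apoc2 (442 ± 214 FPKM) and Apob (439 ± 115 FPKM) also overlapped, with Apoc2 higher in 4 of 11. In pre-transplant livers Apoc2 stood above Apoa5 in 11 of 11 libraries, at 1267 ± 212 against 503 ± 136 FPKM. In long-term survivor livers Apoc2 was above Apoa5 in 5 of 8 (612 ± 290 and 466 ± 48 FPKM), and in post-transplant livers Apoa5 (469 ± 274 FPKM) was above Apoc2 in 8 of 11. The 10 genes together summed to a median of 20172 FPKM in long-term survivors, 10589 post-transplant and 26181 pre-transplant.

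**Figure D1:**
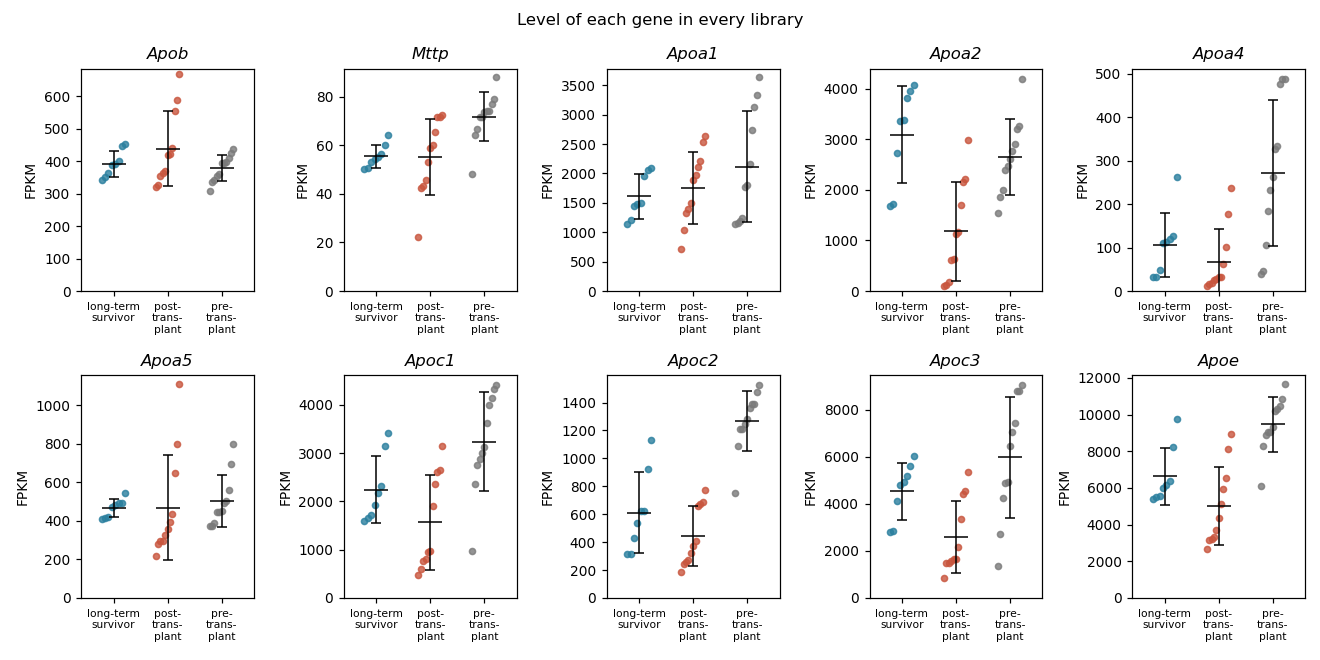
FPKM of each of the 10 genes in every library (points), with the group mean and SD (black), for long-term survivor (n = 8), post-transplant (n = 11) and pre-transplant (n = 11) livers; each panel has its own linear axis from 0. Apoc2 shows post-transplant points below nearly all pre-transplant ones, while for Apob 4 of 11 post-transplant points lie above the pre-transplant range and for Apoa1 2 of 11 lie below it.

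The first comparison asked how post-transplant livers differed from pre-transplant ones. Transcripts of 7 of the 10 genes were lower post-transplant and 0 were higher, while Apob, Apoa1 and Apoa5 did not pass the test. Among all genes tested 26.6% were lower and 23.4% higher, and the median change of the 10 genes was -1.12 against -0.03 for all genes. Here and below a change is a difference of log2(FPKM + 1), given ± its SE, from limma fitted over all genes tested, with p-values adjusted by Benjamini-Hochberg and called under 0.05. For none of the 10 were the groups free of overlap, where 0.964% of all genes lay wholly lower and 2.98% wholly higher. The count was also 7 without post-transplant replicate 9 and pre-transplant u2, which were picked after seeing the data as near the other group. Leaving them out favours a difference. With the run of sample titles as a term the count was 7 too. That fit left out long-term survivors and both columns of the repeated header, and in it M15 to M20 held only post-transplant libraries.

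The pair that starts a VLDL particle did not move together. Apob, which encodes its structural protein, had a lowest, median and highest level of 343, 389.97 and 452 FPKM in long-term survivor livers, 321, 419.8 and 667 FPKM in post-transplant livers and 309, 394 and 437 FPKM in pre-transplant livers. The ranges overlapped, and 4 of 11 post-transplant libraries lay above the pre-transplant range. Its post-transplant change was 0.18 ± 0.11 (95% interval -0.05 to 0.41, limma adjusted p = 0.182), but it was called higher after quantile normalization (0.56, adjusted p = 6.63e-05) and with scaling by total reads (0.38, adjusted p = 0.0017). Mttp, the lipid loader, had 50.3, 54.6 and 64.2 FPKM in long-term survivor livers, 22.4, 58.7 and 72.3 FPKM in post-transplant livers and 48.1, 73.8 and 88.3 FPKM in pre-transplant livers. Post-transplant replicate 3 was lowest, and 4 of 11 post-transplant libraries lay below the pre-transplant range. It fell post-transplant by 0.42 ± 0.14 on the log2 scale (limma adjusted p = 0.0119), a call that was lost after quantile normalization (-0.18, adjusted p = 0.276) and with scaling by total reads (-0.23, adjusted p = 0.177).

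Of the HDL genes Apoa1 and Apoa2, Apoa2 passed the test post-transplant and Apoa1 did not, and their ratio, given below, did not pass. Apoa1, for the main protein of HDL, had 1144, 1489 and 2098 FPKM in long-term survivor livers, 711, 1881 and 2642 FPKM in post-transplant livers and 1139.6, 1804 and 3637 FPKM in pre-transplant livers. In 2 of 11 post-transplant libraries it lay below the pre-transplant range, and its post-transplant change was -0.23 ± 0.23 (95% interval -0.70 to 0.24, limma adjusted p = 0.434), with the sign turned after quantile normalization (0.12). Apoa2, for another HDL protein, had 1685, 3369 and 4069 FPKM in long-term survivor livers, 99.8, 1117 and 2992 FPKM in post-transplant livers and 1533, 2601 and 4191 FPKM in pre-transplant livers. Of the post-transplant libraries 7 of 11 lay below the pre-transplant range, and replicates 6, 10 and 11 were at 183, 121 and 99.8 FPKM. Apoa2 fell post-transplant by 1.82 ± 0.46 (limma adjusted p = 0.00144).

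Apoa4, which encodes a protein of triglyceride-rich particles and HDL, changed the most of the 10. It had 33.2, 111 and 262 FPKM in long-term survivor livers, 12.4, 31.3 and 238 FPKM in post-transplant livers and 39.1, 263 and 487 FPKM in pre-transplant livers. The spread was wide in every group: post-transplant replicate 9 reached 238 FPKM, and pre-transplant replicates 1 and 2 lay at 45.6 and 39.1 FPKM, among post-transplant values. Apoa4 fell post-transplant by 2.25 ± 0.52 (limma adjusted p = 0.000614), with 7 of 11 libraries below the pre-transplant range. Apoa5, its neighbour, which encodes an activator of triglyceride clearance, had 409, 477 and 546 FPKM in long-term survivor livers, 219.9, 357 and 1109.9 FPKM in post-transplant livers and 373, 453 and 800.03 FPKM in pre-transplant livers. Post-transplant values fell on both sides of the pre-transplant range, 6 below and 1 above. The change was -0.24 ± 0.20 (95% interval -0.66 to 0.18, limma adjusted p = 0.353), with the sign turned after quantile normalization (0.10).

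The C apolipoproteins and Apoe were all lower post-transplant. Apoc2 encodes the cofactor that lipoprotein lipase needs. It had 312, 579 and 1131 FPKM in long-term survivor livers, 188, 370.4 and 770.5 FPKM in post-transplant livers and 755, 1281 and 1527 FPKM in pre-transplant livers. In 10 of 11 post-transplant libraries it lay below the pre-transplant range, and the exception, replicate 4, exceeded only pre-transplant u2. Apoc2 fell by 1.65 ± 0.24, with the smallest adjusted p of the 10 (limma, 2.05e-06).

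Apoc3, for an inhibitor of lipoprotein lipase and of remnant uptake, had 2795, 4854 and 6029 FPKM in long-term survivor livers, 857, 1657 and 5341 FPKM in post-transplant livers and 1368, 6458 and 9053 FPKM in pre-transplant livers. Its lowest pre-transplant value was u2, so only 1 of 11 post-transplant libraries lay below the range. It fell post-transplant by 1.25 ± 0.31 (limma adjusted p = 0.00138). Apoc1, whose product hinders the binding of remnants to their receptors, had 1586, 2053 and 3428 FPKM in long-term survivor livers, 469, 975 and 3142 FPKM in post-transplant livers and 969, 3128 and 4413 FPKM in pre-transplant livers. The lowest pre-transplant library was again u2, and 5 of 11 post-transplant libraries lay below it. Apoc1 fell by 1.23 ± 0.30 (limma adjusted p = 0.0012).

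Apoe, for the ligand of remnant receptors, which macrophages also make, had 5390.2, 6079 and 9758 FPKM in long-term survivor livers, 2691, 4361 and 8916 FPKM in post-transplant livers and 6125, 9299 and 11679 FPKM in pre-transplant livers. Of the post-transplant libraries 8 of 11 lay below the pre-transplant range. It fell by 1.01 ± 0.18 (limma adjusted p = 3.59e-05), to a fold of 0.496 on that scale.

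**Figure D2:**
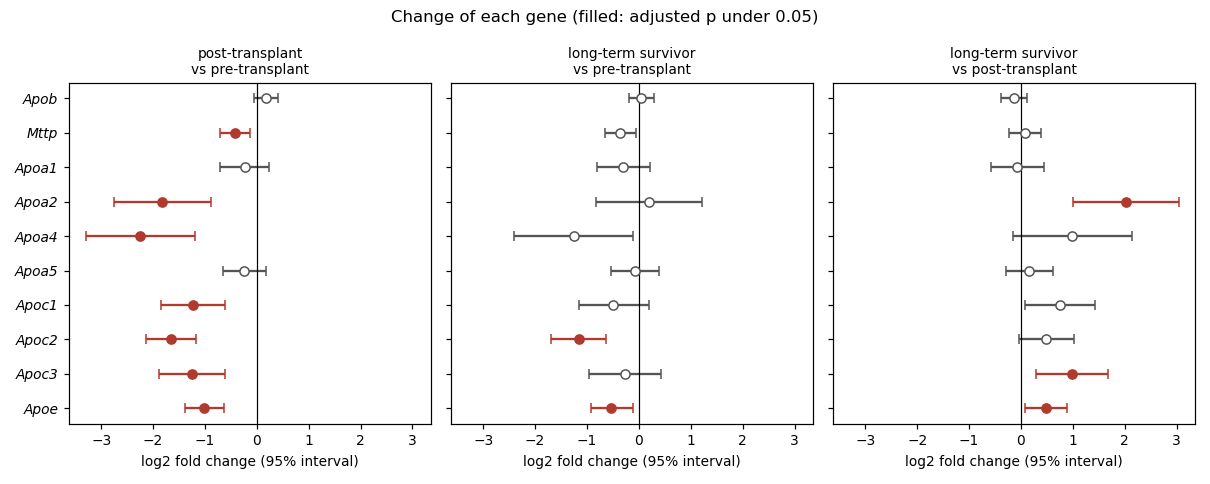
Log2 fold change of each gene on the log2(FPKM + 1) scale with its 95% interval from limma, in the comparisons of post-transplant with pre-transplant, long-term survivor with pre-transplant and long-term survivor with post-transplant livers; filled points have an adjusted p under 0.05. Post-transplant, 7 of 10 genes are filled and lie left of 0, with Mttp losing its call under 2 other scalings.

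The titles of the samples run in blocks (M2 to M7, M8 to M13, M21 to M26) that each hold pre- and post-transplant livers. The labels do not call them batches. A further run, M15 to M20, was not compared in this way, because its pre-transplant columns share 1 header. Post-transplant replicates 7, 8 and 9 of that run had 954, 2356 and 2648 FPKM of Apoc1, against 2364 and 969 FPKM in those columns. For Apoc3 these values were 1657, 3364 and 4552 against 4949 and 1368 FPKM, and for Apoc2 409, 688 and 675 against 1281 and 755 FPKM. Within each of the 3 blocks Apoa2, Apoa4, Apoc1, Apoc2, Apoc3, Apoe and Mttp had a lower mean log2 level post-transplant, in 3 of 3 blocks, and Apob did so in 0 of 3 (0.13 to 0.36). The difference for Apoc2 ran from -2.36 to -1.37 and for Apoa4 from -4.05 to -0.90. Apoa1 differed in sign between blocks. In M8 to M13 it was higher post-transplant, at 2113 to 2642 FPKM against 1155 to 1804 FPKM pre-transplant, a difference of 0.84, and in M2 to M7 it was lower, by -1.01. The difference between blocks was not tested. In M2 to M7 the pre-transplant livers had less Apoc3, 2711 to 4879 FPKM, than in M8 to M13 (7065 to 8816 FPKM) or M21 to M26 (6458 to 9053 FPKM).

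**Figure D3:**
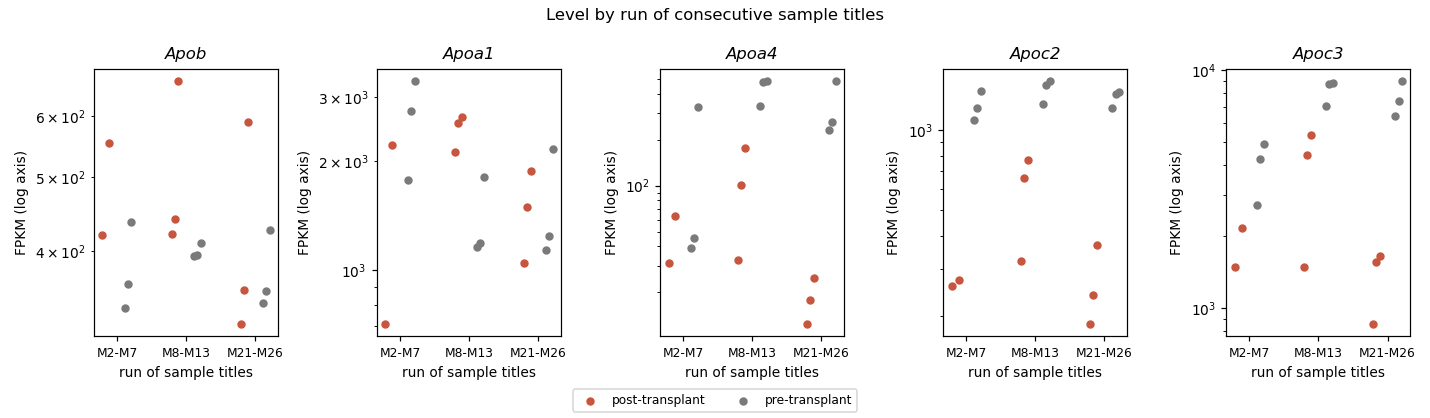
FPKM (log axes) of 5 genes in post-transplant (left, red) and pre-transplant (right, grey) libraries of 3 runs of consecutive sample titles, with 2 or 3 libraries a group. Apoc2 and Apoc3 are lower post-transplant in each of the 3 runs shown, whereas Apoa1 is higher post-transplant in M8 to M13 (2113 to 2642 FPKM, against 1155 to 1804 FPKM pre-transplant). The run M15 to M20 is not shown.

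In the second comparison, long-term survivor livers were set against pre-transplant ones. Apoc2 and Apoe were lower, and 0 of the 10 genes were higher, where 30.8% of all genes tested were lower and 3.85% higher, 34.7% in all. The members' median change was -0.33, against -0.17 for all genes, and for none were the groups free of overlap (3.09% of all genes wholly lower, 0.403% wholly higher). Apoc2 fell by 1.16 ± 0.26 (limma adjusted p = 0.00112), with 6 of 8 long-term survivor libraries below the pre-transplant range. It kept that call in 19 of 19 fits that left out 1 library, and lost it with the closest pairs averaged together with median-of-ratios scaling (-0.85, adjusted p = 0.0531). Apoe fell by 0.53 ± 0.20 (limma adjusted p = 0.0383). That call was lost after median-of-ratios scaling (-0.32, adjusted p = 0.277), with the closest pairs averaged (-0.48, adjusted p = 0.113) and in 11 of 19 fits that left out 1 library (adjusted p up to 0.0736).

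Against pre-transplant livers the other members did not pass the test. Apoa4 had the greatest difference of the 10, -1.26 ± 0.56 (95% interval -2.41 to -0.11, limma adjusted p = 0.0821). Mttp was at -0.36 ± 0.15 (limma adjusted p = 0.067), but was called lower when only the 2 groups were fitted (adjusted p = 0.00408) and without the columns of a repeated header (-0.40, adjusted p = 0.0441). Apoa2 was at 0.20 ± 0.50 (95% interval -0.82 to 1.22), and Apob at 0.05 ± 0.12 (95% interval -0.20 to 0.30). The intervals of Apoa2 and of Apoc3 (-0.27 ± 0.34, 95% interval -0.97 to 0.42) leave room for changes of more than 1.5-fold in either direction for Apoa2 and downward for Apoc3.

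The third comparison set long-term survivor livers against post-transplant ones. Apoa2, Apoc3 and Apoe were higher in long-term survivors and 0 of 10 were lower, where 10.5% of all genes tested were higher and 36.9% lower, 47.4% in all. The members' median was 0.49, against -0.16 for all genes, and for none were the groups free of overlap (0.335% of all genes wholly higher, 5.59% wholly lower). The post-transplant libraries are those of the first comparison, so the comparisons are not independent. Apoa2 was 2.02 ± 0.50 higher (limma adjusted p = 0.00149), with 5 of 8 libraries above the post-transplant range, and Apoc3 0.98 ± 0.34 higher (limma adjusted p = 0.0186). Apoe was 0.48 ± 0.20 higher (limma adjusted p = 0.0443), a call lost in 11 of 19 fits without 1 library (adjusted p up to 0.103) and after quantile normalization (0.18, adjusted p = 0.269). It was also lost with the closest pairs averaged (0.53, limma adjusted p = 0.0552). Apoc1 (0.75 ± 0.33, limma adjusted p = 0.0618) and Apoc2 (0.49 ± 0.26, limma adjusted p = 0.121) did not pass, but both did after median-of-ratios scaling (Apoc1 0.96, adjusted p = 0.0201; Apoc2 0.70, adjusted p = 0.0306), and Apoc1 also with scaling by total reads (adjusted p = 0.0391). Apob was at -0.13 ± 0.12 (95% interval -0.38 to 0.12), with its sign turned after median-of-ratios scaling (0.08).

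A ratio of 2 genes within a library does not depend on how libraries were scaled. Permutation tests compared 9 such ratios in 3 comparisons, 27 tests in all, with p adjusted over them by Benjamini-Hochberg, and 11 passed. They were two-sided, exact where a group held under 10 libraries and from 100000 resamples otherwise. Differences are of mean log2 ratios of FPKM + 1.

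The ratio of Apob to Mttp had a lowest, median and highest value of 6.05, 7.11 and 7.96 in long-term survivor livers, 5.03, 7.92 and 24.7 in post-transplant livers and 4.69, 5.31 and 6.43 in pre-transplant livers. In 7 of 8 long-term survivor and 8 of 11 post-transplant libraries it lay above the pre-transplant range. The log2 difference was 0.41 in long-term survivors (exact permutation test, adjusted p = 0.000714) and 0.60 post-transplant (permutation test, adjusted p = 0.00648). The 24.7 was post-transplant replicate 3, the library with the lowest Mttp, and without any 1 library the post-transplant difference was at least 0.45 and stayed called in 22 of 22 fits. No difference passed between long-term survivor and post-transplant livers (-0.20, exact permutation test, adjusted p = 0.567).

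Within the chromosome 1 cluster, Apoc2 fell more than Apoe. Apoc2/Apoe was 0.0561 to 0.137 in long-term survivor livers, 0.0537 to 0.124 in post-transplant livers and 0.104 to 0.157 in pre-transplant livers. Its log2 difference from pre-transplant was -0.64 in long-term survivors (exact permutation test, adjusted p = 0.00191) and -0.64 post-transplant (permutation test, adjusted p = 0.000714). Apoc1/Apoe did not pass in any comparison (post- against pre-transplant -0.22, permutation test, adjusted p = 0.318). Apoc2 was also lower relative to Apoc3 in long-term survivors, both against pre-transplant (-0.89, exact permutation test, adjusted p = 0.00686) and against post-transplant livers (-0.49, exact permutation test, adjusted p = 0.0251). The second of these was lost with the closest pairs averaged (adjusted p = 0.0581).

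Of 3 ratios within the chromosome 8 cluster, 2 passed post- against pre-transplant. Apoa4/Apoa1 had a median of 0.0171 in post-transplant livers and 0.107 in pre-transplant livers, a log2 difference of -2.02 (permutation test, adjusted p = 0.0251). Apoa5/Apoc3 was higher post-transplant than pre-transplant, with medians of 0.189 and 0.0791 and a difference of 1.02 (permutation test, adjusted p = 0.0251), and lower in long-term survivors than post-transplant (-0.82, exact permutation test, adjusted p = 0.0251). Apoa2/Apoa1, which compares transcripts of HDL proteins, was higher in long-term survivors than post-transplant, with medians of 1.76 and 0.846 (log2 difference 2.09, exact permutation test, adjusted p = 0.0251), though with the closest pairs averaged the adjusted p was 0.0567. Post- against pre-transplant that ratio differed by -1.59 and did not pass (permutation test, adjusted p = 0.0506). Apoc3/Apoa1 spread most before transplantation. It was 2.98 to 7.94 in the 6 pre-transplant libraries titled M8 to M10 and M21 to M23, and 0.376 to 1.58 in the other 5, a split along titles seen in the data and not tested. Post- against pre-transplant it differed by -1.03 and did not pass (permutation test, adjusted p = 0.125). Between long-term survivor and post-transplant livers it differed by 1.05 (exact permutation test, adjusted p = 0.0393), which was lost with the closest pairs averaged (adjusted p = 0.0711).

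**Figure D4:**
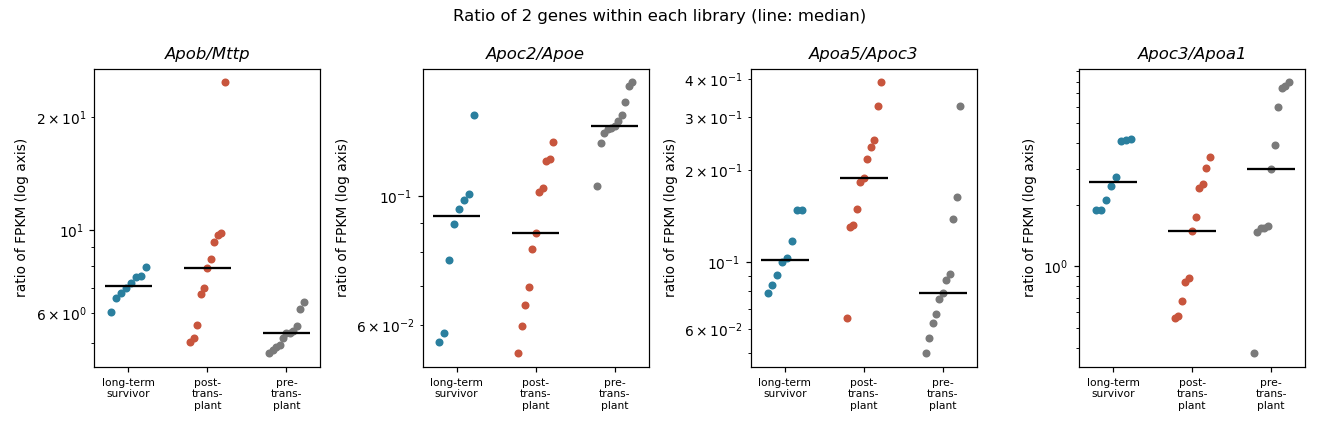
Ratio of FPKM of 2 genes within each library (points, log axes) in long-term survivor, post-transplant and pre-transplant livers, with the group median (line). Apob/Mttp has medians of 7.11, 7.92 and 5.31 in these groups, and 1 post-transplant library lies at 24.7; Apoc3/Apoa1 spans 0.376 to 7.94 pre-transplant.

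A list of 74 other genes of lipoprotein metabolism, by role, gave 72 in the table and 67 tested. Post-transplant 8 were higher and 37 lower than pre-transplant, with a median of -0.36, and 14 and 26 with scaling by total reads. Of all 11924 genes tested 23.4% were higher and 26.6% lower in that comparison. With scaling by total reads 3611 of them were higher and 1688 lower. In long-term survivors 3 were higher and 20 lower than pre-transplant (median -0.18), but 6 and 5 after median-of-ratios scaling. The shares before that scaling are near those of all genes tested, 3.85% higher and 30.8% lower with a median of -0.17. After it 985 of all genes were higher and 1151 lower. Against post-transplant 21 were higher and 15 lower in long-term survivors (median 0.23), and 30 and 6 after that scaling. Of all genes tested 10.5% were higher and 36.9% lower, and after median-of-ratios scaling 2573 genes were higher and 2497 lower. The role counts below stand against the same shares of all genes. For each role up to 3 called genes with the smallest adjusted p are described, with mean ± SD FPKM (n = 8 long-term survivor, 11 post-transplant, 11 pre-transplant).

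Genes of VLDL assembly and secretion that passed the test post-transplant were all lower, 11 of 16 with 0 higher. Cideb, for a lipid droplet protein that lipidates VLDL, was at 70.5 ± 25.3 FPKM post-transplant and 128 ± 14.2 FPKM pre-transplant (-0.94 ± 0.15, limma adjusted p = 8.61e-06). Mia2, for an export factor of the endoplasmic reticulum, was at 45.7 ± 12.1 and 74.2 ± 9.17 FPKM in these groups (-0.72 ± 0.12, limma adjusted p = 1.29e-05). Aadac, for a hydrolase of the endoplasmic reticulum, was at 21.2 ± 11.1 FPKM post-transplant and 56.3 ± 16.4 FPKM pre-transplant (-1.51 ± 0.25, limma adjusted p = 1.38e-05). In long-term survivors 8 of 16 were lower than pre-transplant and 0 higher. Among them were Surf4, a cargo receptor (5.41 ± 1.31 against 11.5 ± 2.74 FPKM, -0.96 ± 0.13, limma adjusted p = 4.04e-06), Dgat1, which makes triglyceride (-0.49 ± 0.10, limma adjusted p = 0.000665), and Sar1a, a coat protein GTPase (-0.36 ± 0.09, limma adjusted p = 0.0025). The calls of Dgat1 and Sar1a were lost after quantile normalization (adjusted p = 0.0747 and 0.453). Against post-transplant livers 5 of 16 were higher and 5 lower, with Mia2 higher (0.64 ± 0.13, limma adjusted p = 0.000248) and Pla2g12b, needed for VLDL lipid loading in mouse (-0.48 ± 0.10, limma adjusted p = 0.000372) and Surf4 (-0.60 ± 0.13, limma adjusted p = 0.000394) lower.

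The genes of Apob mRNA editing moved apart. Apobec1, which encodes the editing enzyme, was at 13.2 ± 5.41 FPKM post-transplant and 4.78 ± 1.31 FPKM pre-transplant (1.25 ± 0.15, limma adjusted p = 1.09e-07), and all 11 post-transplant libraries lay above the pre-transplant range. Its partners fell, Rbm47 by 0.74 ± 0.14 (limma adjusted p = 8.26e-05) and A1cf by 0.97 ± 0.26 (limma adjusted p = 0.00251). In long-term survivors Apobec1 was at 5.76 ± 0.99 FPKM, lower than post-transplant (-1.01 ± 0.16, limma adjusted p = 1.34e-05). Rbm47 (-0.41 ± 0.15, limma adjusted p = 0.0395) and A1cf (-0.71 ± 0.28, limma adjusted p = 0.0484) were lower there than pre-transplant, calls that were both lost after median-of-ratios scaling (adjusted p = 0.368 and 0.215). The call of A1cf was also lost with the closest pairs averaged (limma adjusted p = 0.0795). Of 19 fits that left out 1 library, Rbm47 kept its call in 7 and A1cf in 6. A table of gene levels holds no measure of editing itself.

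Among 9 other apolipoproteins and HDL proteins 1 was higher and 6 lower post-transplant. Apon, for apolipoprotein N, was at 41.2 ± 28.2 FPKM post-transplant and 239 ± 115 FPKM pre-transplant (-2.55 ± 0.33, limma adjusted p = 4.61e-07). Pon1, for the HDL enzyme paraoxonase, fell by 1.75 ± 0.28 (limma adjusted p = 8.38e-06), and Saa4, for a serum amyloid A carried on HDL, rose by 1.58 ± 0.23 (limma adjusted p = 2.36e-06). In long-term survivors Apof (-0.80 ± 0.28, limma adjusted p = 0.0277) and Apoc4 (-0.58 ± 0.21, limma adjusted p = 0.0326) were the 2 of 9 lower than pre-transplant, and both calls were lost after median-of-ratios scaling (adjusted p = 0.145 and 0.228). Both were also lost with the closest pairs averaged (limma adjusted p = 0.0853 and 0.0696), and each was kept in 16 of 19 fits that left out 1 library. Against post-transplant livers 4 were higher and 1 lower. Apon was at 154 ± 42.6 FPKM there (2.08 ± 0.36, limma adjusted p = 3.75e-05), and Pon3 (1.24 ± 0.21, limma adjusted p = 2.57e-05) and Pon1 (1.51 ± 0.31, limma adjusted p = 0.000216) were higher too.

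Of 6 genes that load or remodel HDL lipid, 3 were higher and 2 lower post-transplant. Abcg1, a cholesterol exporter, was at 8.95 ± 3.18 FPKM post-transplant and 2.66 ± 0.99 FPKM pre-transplant (1.43 ± 0.14, limma adjusted p = 9.69e-09). Pltp, for a phospholipid transfer protein, rose by 1.43 ± 0.25 (limma adjusted p = 2.32e-05), and Lipc, for hepatic lipase, fell by 1.75 ± 0.24 (limma adjusted p = 1.23e-06). None of the 6 was called in long-term survivors against pre-transplant livers, where 3 of 67 pathway genes were higher and 20 lower. Against post-transplant livers 2 were higher and 3 lower, with Lipc higher (1.59 ± 0.27, limma adjusted p = 2.43e-05) and Abcg1 (-1.34 ± 0.16, limma adjusted p = 1.78e-07) and Abca1 (-0.42 ± 0.12, limma adjusted p = 0.00489) lower, the last not after median-of-ratios scaling (adjusted p = 0.133).

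Of 12 genes of lipoprotein receptors and clearance 3 were higher and 6 lower post-transplant. Lpl, for lipoprotein lipase itself, rose by 1.67 ± 0.33 (limma adjusted p = 0.000125), with 7 of 11 post-transplant libraries above the pre-transplant range, and Mylip, for a ligase that degrades the LDL receptor, rose by 0.67 ± 0.13 (limma adjusted p = 8.25e-05). In long-term survivors 1 was higher and 2 lower than pre-transplant. Angptl8, for a regulator of lipoprotein lipase, was lower (-1.46 ± 0.45, limma adjusted p = 0.0124), and Lpl was higher (0.97 ± 0.36, limma adjusted p = 0.036). The call of Angptl8 was lost after quantile normalization (adjusted p = 0.0665) and that of Lpl with the closest pairs averaged (adjusted p = 0.13). Lpl kept its call in only 9 of 19 fits that left out 1 library. Against post-transplant livers 3 were higher and 4 lower, and Mylip was lower (-0.76 ± 0.14, limma adjusted p = 6.81e-05).

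Of 21 regulators of apolipoprotein genes 0 were higher and 10 lower post-transplant, where 23.4% and 26.6% of all genes were. Nr1h4, the bile acid receptor, was at 14.8 ± 6.13 FPKM post-transplant and 36.3 ± 8.00 FPKM pre-transplant (-1.30 ± 0.17, limma adjusted p = 5.76e-07). Creb3l3, for a membrane-bound factor of liver, fell by 0.81 ± 0.13 (limma adjusted p = 1.12e-05), and Cebpa, a hepatocyte factor, by 0.97 ± 0.21 (limma adjusted p = 0.000392). Hnf4a, the factor whose core motif stands in the Apoa4 window, was at -0.38 (limma adjusted p = 0.0739) and is named outside the rule. In long-term survivors 2 were higher and 6 lower than pre-transplant, a share lower near the 30.8% of all genes. Nr1h3, the oxysterol receptor (-0.48 ± 0.10, limma adjusted p = 0.000688), Rora (-0.57 ± 0.15, limma adjusted p = 0.00427) and Ppara, the fatty acid receptor (11.1 ± 5.90 against 21.8 ± 8.83 FPKM, limma adjusted p = 0.0124), were lower, and the calls of Nr1h3 and Ppara were lost after median-of-ratios scaling (adjusted p = 0.0597 and 0.0651). Against post-transplant livers 7 were higher and 1 lower, with Nr1h4 (0.78 ± 0.19, limma adjusted p = 0.0012) and Srebf1, the activator of fatty acid synthesis (1.53 ± 0.43, limma adjusted p = 0.00465), higher, and Nr1h3 lower (-0.35 ± 0.10, limma adjusted p = 0.00523), the last not after that scaling (adjusted p = 0.259).

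**Figure D5:**
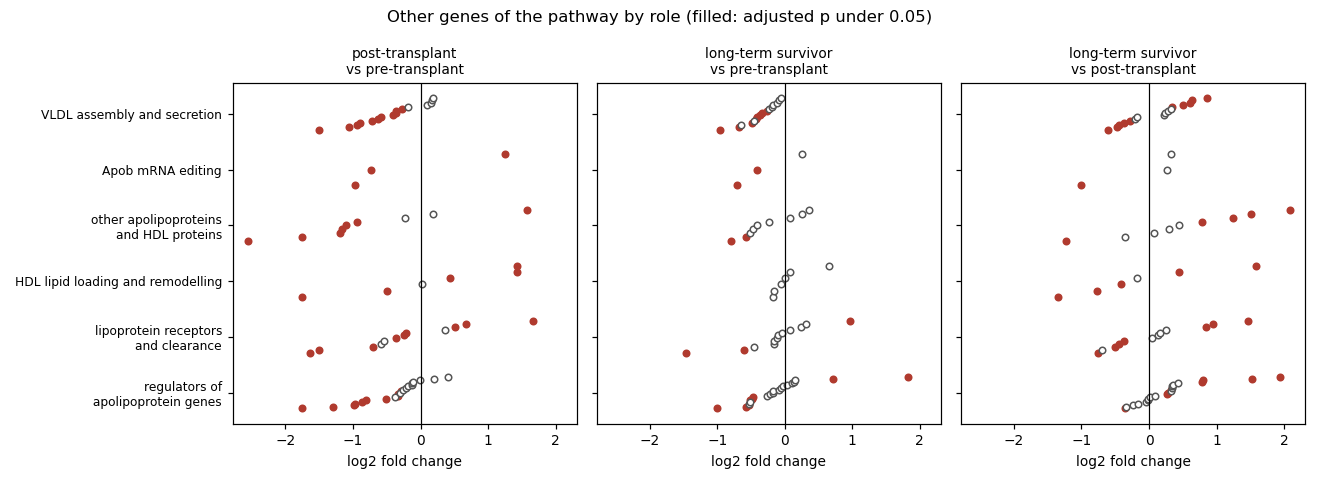
Log2 fold change, on the log2(FPKM + 1) scale, of the 67 tested genes of lipoprotein metabolism other than the 10 members, by role (rows), in 3 comparisons; filled points have an adjusted p under 0.05. Post-transplant the filled points of VLDL assembly genes (11 of 16) and regulators (10 of 21) lie left of 0, under the authors' scaling.

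Markers of several cell types also differed between the groups. Of all genes tested 26.6% were lower and 23.4% higher post-transplant than pre-transplant, and 36.9% were lower in long-term survivors than post-transplant. The 8 hepatocyte markers summed to 56320 to 93550 FPKM in long-term survivor livers (median 76650), 23360 to 82460 FPKM in post-transplant livers (median 40430) and 47920 to 107400 FPKM in pre-transplant livers (median 86970). Of them 5 of 8 were lower post-transplant than pre-transplant and 0 higher (median -0.60), and Tf (-0.07 ± 0.12, limma adjusted p = 0.639) and Serpina1 (-0.18 ± 0.18, limma adjusted p = 0.417) did not pass. The 12 macrophage and Kupffer cell markers summed to 447 to 670.1 FPKM in long-term survivors, 1114 to 2766 FPKM post-transplant and 346 to 819 FPKM pre-transplant, with 11 of 12 higher post-transplant than pre-transplant. Neutrophil markers summed to a median of 7.94 FPKM in long-term survivors, 75.5 FPKM post-transplant and 1.91 FPKM pre-transplant. Stellate cell and fibroblast markers were higher post-transplant than pre-transplant in 4 of 6 (median 1.65) and lower in long-term survivors than post-transplant in 5 of 6 (median -1.07). In long-term survivors against pre-transplant, bile duct markers were higher in 4 of 4 tested (median 1.35) and endothelial markers lower in 3 of 4 tested (median -0.83). There 3.85% of all genes tested were higher and 30.8% lower, and the genes called lower went from 3675 to 1151 after median-of-ratios scaling. The part of these cell types in the members' changes was not tested. Of 5 markers of enterocytes, the intestinal cells that also make apolipoproteins, Si and Alpi were at 0 in all libraries, and the 5 summed to at most 5.63 FPKM in long-term survivors, 7.93 FPKM post-transplant and 20.2 FPKM pre-transplant.

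The members' table lengths ran from 440 bases (Apoa2) to 14969 bases (Apob). Among all genes tested with a mean of at least 50 FPKM, the median post-transplant change was -0.33 for the 328 of up to 1000 bases. It was -0.41 for the 518 longer than that and up to 2000 bases. For the 320 beyond 2000 and up to 4000 bases it was -0.45, and for the 67 over 4000 bases -0.26. Mttp, of 3997 bases, was at -0.42, near the median of its class. Apoa4 (-2.25) and Apoe (-1.01) fell further than the median of theirs, and Apoa5 (-0.24) less. In long-term survivors against pre-transplant the median was -0.49 for genes of up to 1000 bases and -0.11 for those over 4000 bases. The classes between were at -0.26 and -0.17. The part of length and level in the members' differences was not tested in either comparison.

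Over all 30 libraries, after each group's mean was taken off, the members most like each other were Apoc1 and Apoe (Pearson r = 0.923 of log2 levels), then Apoc1 and Apoc3 (0.895). The lowest values were those of Apoa1, at -0.335 with Apoc1 and -0.301 with Apoc3. The libraries share scaling and depth, so these r values describe this set only. Outside the list, Apoc1 was most like Aldh2 (0.958) and Dpm1 (0.945), Apoe like Aldh2 (0.94) and F12 (0.937), and Apoc3 like Dpt (0.948) and Cdo1 (0.945). Apoa2 was most like AC114343.1 (0.919) and Cyp2d2 (0.913), Apoc2 like Rida (0.911) and Pccb (0.896), and Mttp like Mad1l1 (0.903) and Cpped1 (0.867). Apoa5 was most like Igfbp4 (0.854) and Gys2 (0.839), and Apoa4 like Serpina4 (0.845) and Apon (0.839). The weakest likenesses were those of Apob, with Zfp622 (0.772) and Slc39a14 (0.756), and Apoa1, with Aqp7 (0.76) and Hadhb (0.755).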

How the data were processed

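A set of 30 rat liver libraries was compared from 1 table of FPKM values per gene that the authors deposited, with gene lengths and coordinates. The submitters' processing notes name HISAT2 2.0.5 and the build Rnor_6.0, and also mm10, with no role given. Of 32 value columns 2 could not be tied to a group and were not used. The FPKM values were whole multiples of 1 read for 100.0% of values up to 5000 reads (tolerance 0.02 reads), which gave the reads per library. Genes reaching 1 FPKM in 8 libraries were tested on log2(FPKM + 1), a scale that understates changes of low genes, with limma 3.58.1 in R 4.3.3 (1 fit of 3 groups, trend and robust), Benjamini-Hochberg adjustment and a threshold of 0.05, checked on simulated data. The members and lists were chosen with earlier results of these data known. Named pathway genes are the 3 called genes of each role with the smallest adjusted p per comparison, of which some are not reported here; genes of likeness are the 2 with the highest Pearson r. Ratios were tested by permutation in Python 3.11.15. Alternatives changed the pseudocount, filter, scaling, groups fitted, test and libraries. Added after seeing the data were scaling by total reads, leaving out post-transplant replicate 9 and pre-transplant u2, and averaged pairs with median-of-ratios scaling.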

Additional observations from a re-analysis of the deposited data

Results flagged for a closer look

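Among the 8 long-term survivor libraries, replicate 2 stood apart for Apoa4, at 262 FPKM, with the nearest other library at 127 FPKM. The gap was 0.591 of the group's range, past Dixon's 95% critical value for 8 samples. That rule was applied to each of the 10 genes in this group, and chance alone marks about 1 in 20 groups.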

How the results depend on the processing

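Post- against pre-transplant, 7 members were lower in each fit that left out 1 library, and 6 after quantile normalization. Of all genes tested 2912 to 3278 were lower in those fits and 3563 after quantile normalization. Members higher and pathway genes higher were 1 and 15 after quantile normalization and 1 and 14 with scaling by total reads, and Apoa1 turned to 0.116 after quantile normalization and 0.00384 with title run as a term, and Apoa5 to 0.0978 after quantile normalization. Of all genes tested 2787 were higher in the main fit, 2663 after quantile normalization and 3611 with scaling by total reads. Comparisons with long-term survivors moved more. Against pre-transplant, members lower were 1 with no filter, median-of-ratios scaling or the closest pairs averaged, and 0 with pairs averaged and that scaling. Pathway genes higher there were 1 with no filter or without the repeated headers, 6 with median-of-ratios or quantile scaling, 5 with only the 2 groups fitted, and 0 with pairs averaged, alone or with median-of-ratios scaling. Of all genes tested, those higher went from 459 to 817 with no filter (of 21885 tested) and 422 without the repeated headers. They were 985 with median-of-ratios, 906 with quantile scaling, 653 with 2 groups fitted and 266 with pairs averaged. With pairs averaged and median-of-ratios scaling they were 558. Pathway genes lower were 5 with median-of-ratios, 3 with quantile normalization, 11 with pairs averaged, 10 with total reads and 2 with pairs averaged and median-of-ratios scaling. Of all genes tested, those lower went from 3675 to 3530 with no filter, 1151 with median-of-ratios and 1067 with quantile normalization. They were 2786 with pairs averaged, 1353 with total reads and 650 with pairs averaged and median-of-ratios scaling. Apoa5 turned to 0.13 (median-of-ratios), 0.143 (quantile), 0.0369 (total reads) and 0.139 (pairs and median-of-ratios), Apoc3 to 0.0129 (pairs and median-of-ratios), and without the repeated headers Apoc3/Apoa1 to -0.384 and Apoc1/Apoe to -0.0922.

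In long-term survivors against post-transplant, members higher were 5 with median-of-ratios scaling, alone or with pairs averaged, pathway genes lower 6 and 5 in those settings, and ratios called 1 with pairs averaged. Of all genes tested, those higher went from 1255 to 2573 with median-of-ratios scaling and 2281 with pairs averaged too. Those lower went from 4401 to 2497 and 2219. Apoa1 turned to 0.145 (median-of-ratios), 0.0184 (pairs) and 0.228 (both), Apob to 0.0817 (median-of-ratios) and 0.105 (both), and Mttp to -0.0142 (total reads). Leaving out 1 library gave 2 to 4 members higher, 16 to 25 pathway genes higher and 1 to 4 ratios called against post-transplant, and 1 to 3 members lower, 1 to 4 pathway genes higher and 14 to 21 lower against pre-transplant. Of all genes tested, those fits called 1080 to 1386 higher against post-transplant, and 348 to 497 higher and 3226 to 3667 lower against pre-transplant. Post- against pre-transplant, leaving out 1 library gave 4 to 6 ratios called. Signs turned within those ranges for Apoa1 (-0.186 to 0.00277), Mttp (-0.0514 to 0.113), Apoa1/Apob (-0.095 to 0.13) and Apoc2/Apoe (-0.0908 to 0.0933) against post-transplant, and for Apoc3/Apoa1 (-0.264 to 0.176) and Apoc1/Apoe (-0.0604 to 0.102) against pre-transplant, none of them called. The cause of these shifts was not tested. No paired analysis was possible because the labels give no replicate numbers, and those used here only name libraries. Over all members and libraries, the reads of a member ran from 443 (Apoa4) to 287800 (Apoe).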
